A study of Mus musculus with 8 samples.

Results

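The acute-phase genes examined here were 9 of the 21859 genes counted in mouse aorta, chosen by name: the serum amyloid A genes Saa1, Saa2, Saa3 and Saa4, and Lcn2, Ptx3, Hp, Hpx and Orm1. They were compared between aortas of 4 ApoE-/- mice, which lack apolipoprotein E in every tissue and develop atherosclerosis, and 4 WT mice. All mice were male, 40 weeks old and on the C57BL/6 background, and all were fed a normal chow diet with no other treatment. Each library held total RNA of 1 whole aorta, so the wall, any plaque and any attached tissue were measured together, and a lower level through fewer cells of a type cannot be told apart from less RNA per cell. The question was how this arm of inflammation differs at the RNA level between the atherosclerosis-prone and the control aorta.

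The acute-phase response is the change in secreted proteins that follows injury or infection. Interleukin-6, interleukin-1 and tumour necrosis factor act on the liver, where STAT3, C/EBP factors and NF-kappaB raise transcription of the positive acute-phase genes. Several of these genes are also transcribed outside the liver: in mice, Saa3 is known from macrophages and adipocytes, Lcn2 from neutrophils, macrophages and epithelium, Ptx3 from endothelium, smooth muscle and myeloid cells, and Hp and Orm1 from adipocytes.

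Saa3, Lcn2 and Ptx3 were higher in all 4 ApoE-/- aortas than in any WT aorta. In the test across all genes (edgeR quasi-likelihood F test, Benjamini-Hochberg adjustment over 15077 genes, threshold 0.05), Saa3 rose with a log2 fold change of 6.32 ± 0.75 (SE) and Lcn2 with 2.72 ± 0.39. Ptx3, at 2.06 ± 0.46, missed this threshold and passed that of DESeq2. Hp, Orm1 and Hpx overlapped between genotypes, and Saa1, Saa2 and Saa4 had too few counts for the test. Of the 6 members tested, 2 were called higher and 0 lower, where 0.371% of all tested genes were called higher. With DESeq2, 3 of the 6 were called higher, where the background was 3.23%. CPM, the counts of a gene per 1000000 counted pairs after TMM scaling, was higher without overlap in 3 of the 6, where the background was 5.41%. The median log2 fold change of the 6 was 1.64, against 0.05 over all tested genes. Saa3 and Ptx3 passed the filter on low counts through the ApoE-/- libraries, so these counts and this median describe the tested members only.

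The libraries and labels were checked first. Read pairs counted on genes ranged from 23240995 to 23940156 in ApoE-/- and from 18375898 to 21664598 in WT libraries, and the genotypes did not overlap (exact permutation test, two-sided, p = 0.0286, which is the lowest value possible with 4 mice a group). CPM and the fits are scaled to these totals. Apoe itself, which the knockout removes, lay at 14.7 to 36.3 CPM in ApoE-/- and at 536 to 857 CPM in WT aortas, a log2 fold change of -4.83 ± 0.37 (edgeR adjusted p = 0.0141), and every library matched its label. Smooth muscle markers, which define the aortic media, summed to 5123 to 21084 CPM in ApoE-/- and 11383 to 21348 CPM in WT aortas. A summed 3705 to 15233 CPM in ApoE-/- and 8571 to 16282 CPM in WT came from 10 adipocyte markers, among them Fabp4, the adipocyte fatty acid binding protein. Their values stand beside Hp and Orm1 below.

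The 4 Saa genes lie in a single cluster on chromosome 7 of the mouse genome (GRCm38), chr7:46711998-46754313, which spans 42.3 kb and lies 27.0 Mb from Apoe. From low to high coordinate the order is Saa3, Saa4 and Saa1, all on the minus strand, and Saa2 on the plus strand. The family is shown by sequence because its members were read out so differently in these aortas. Below are the RefSeq promoter stretches (build GRCm38.p6), each starting at position -220 from the RefSeq transcription start and written 5′ to 3′ on the gene's own strand, without bases that GENCODE M21 places inside the gene. Capitals mark matches to TTNNGNAA on either strand, a form of the C/EBP site.
Saa1, minus strand, chr7:46742981-46743200, positions -220 to -1: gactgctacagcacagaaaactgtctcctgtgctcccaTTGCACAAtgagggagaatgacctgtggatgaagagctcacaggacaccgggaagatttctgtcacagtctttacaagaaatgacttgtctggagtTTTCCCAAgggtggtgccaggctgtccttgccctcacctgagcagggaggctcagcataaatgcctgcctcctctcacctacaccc
Saa2, plus strand, chr7:46751613-46751789, positions -220 to -44: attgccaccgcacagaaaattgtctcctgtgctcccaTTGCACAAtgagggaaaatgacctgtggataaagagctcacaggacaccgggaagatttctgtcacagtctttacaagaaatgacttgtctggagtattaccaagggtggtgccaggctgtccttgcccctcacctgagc
Saa3, minus strand, chr7:46715701-46715896, positions -220 to -25: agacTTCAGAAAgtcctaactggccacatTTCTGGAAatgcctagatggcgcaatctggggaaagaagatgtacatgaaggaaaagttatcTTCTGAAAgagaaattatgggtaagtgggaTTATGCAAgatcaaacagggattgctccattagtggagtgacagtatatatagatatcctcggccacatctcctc
Saa4, minus strand, chr7:46732604-46732823, positions -220 to -1: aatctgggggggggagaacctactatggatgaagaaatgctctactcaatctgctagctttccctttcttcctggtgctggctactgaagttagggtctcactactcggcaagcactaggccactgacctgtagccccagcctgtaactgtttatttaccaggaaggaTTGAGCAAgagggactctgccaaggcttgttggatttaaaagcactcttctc

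Over the 220 bases before the RefSeq start, Saa1 and Saa2 were 95.5% identical, while Saa1 and Saa3 were 54.4% identical. The Saa3 stretch held 4 matches to TTNNGNAA. Within the full RefSeq windows, 250 bases before to 50 after the start, 0.852% of all 32851 promoters held 4 or more such matches and 40.7% held at least 1. A window was found for 7 of the 9 members, and each of the 7 held at least 1 match. None of the 7 held TTCNNNGAA, a STAT site (8.3% of all promoters), or TATAAA, the TATA box in its strictest form (13.6%). The kappaB consensus, searched on both strands, occurred in the Ptx3 window only, as 2 overlapping matches on opposite strands that span the start site, and in 4.51% of all promoters.

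The serum amyloid A proteins are small apolipoproteins. Saa1 and Saa2 are the plasma forms made by liver and carried on high-density lipoprotein, Saa3 is the form made locally in inflamed tissue, and Saa4 is the constitutive form. Saa3 (ENSMUSG00000040026.8) was counted 565, 101, 152 and 424 times in ApoE-/- replicates 1 to 4, and 2, 2, 2 and 7 times in WT replicates 1 to 4. These counts correspond to 22.9, 4.42, 6.62 and 18.4 CPM and to 0.0918, 0.0936, 0.111 and 0.335 CPM. The lowest ApoE-/- aorta was thus well above the highest WT aorta, and the ApoE-/- values fell into a higher pair, replicates 1 and 4, and a lower pair, replicates 2 and 3. The means were 13.1 ± 8.98 CPM (SD, n = 4) and 0.158 ± 0.118 CPM, and the log2 fold change of 6.32 ± 0.75 placed Saa3 at rank 10 of all tested genes by p (edgeR adjusted p = 0.0355, DESeq2 adjusted p = 2.55e-15). Summed over libraries and scaled for depth, 1242 against 13 counts give a ratio of 83.9, with a 95% counting interval of 48.9 to 158. That interval covers counting error only and is narrower than the range between mice allows, since the ApoE-/- aortas alone spanned 5.19-fold.

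**Figure D1:**
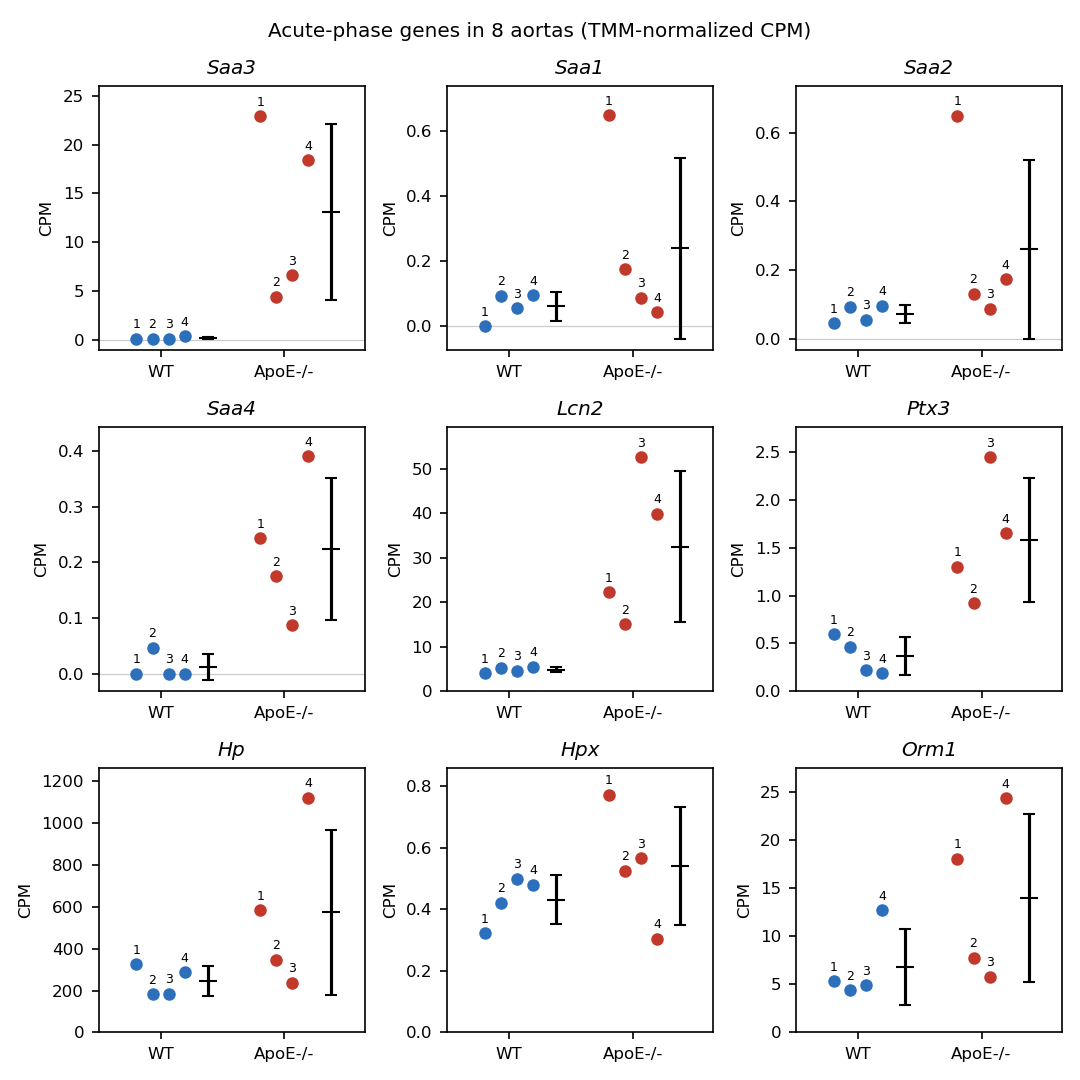
TMM-normalized CPM (y axis, linear, a scale of its own in each panel) of the 9 acute-phase genes in WT (blue) and ApoE-/- (red) aortas, with the replicate number above each point and a black bar for mean ± SD (n = 4). Saa3, Lcn2, Ptx3 and Saa4 do not overlap between genotypes, and the highest ApoE-/- aorta is replicate 1 for Saa3, replicate 3 for Lcn2 and Ptx3, and replicate 4 for Hp and Orm1.

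The other 3 Saa genes were near the limit of detection. Saa1 was counted 16, 4, 2 and 1 times in ApoE-/- and 0, 2, 1 and 2 times in WT aortas. Saa2 was counted 16, 3, 2 and 4 times in ApoE-/- and 1, 2, 1 and 2 times in WT aortas. For both, most of the ApoE-/- counts came from replicate 1, and the genotypes overlapped (two-sided exact permutation test on CPM, p = 0.257 for Saa1 and 0.0857 for Saa2). The summed counts, 23 against 5 and 25 against 6, give depth-scaled ratios of 4.04 (95% counting interval 1.5 to 13.6) and 3.66 (1.46 to 10.9). Without ApoE-/- replicate 1, a setting added after the data were seen, the ratios fell to 1.67 (0.456 to 6.67, 7 against 5 counts) and 1.79 (0.568 to 6.11, 9 against 6 counts), so that neither interval excluded equal levels. These 2 genes share 94% of aligned transcript positions, and of the 50-base windows of their transcripts, 14.8% of those of Saa1 and 13.3% of those of Saa2 also occur in another Saa gene. A pair that lies wholly inside such stretches aligns to more than 1 place and was left out by the authors' counting, so the split between Saa1 and Saa2 is uncertain. Of the Saa3 transcript windows, 1.78% occur in Saa1.

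Saa4 was counted 6, 4, 2 and 9 times in ApoE-/- and 0, 1, 0 and 0 times in WT aortas. The genotypes did not overlap (exact permutation test, two-sided, p = 0.0286, again the lowest possible), but with 21 counts against 1 the depth-scaled ratio of 18.4 has a counting interval from 2.97 to 762. Within the family, Saa3 took 90.2% to 96.8% of all Saa counts in each ApoE-/- aorta. In WT aortas the 4 genes together gave 25 counts, of which Saa3 took 52%.

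The genes around the Saa cluster were examined next. Within 100 kb of the cluster 6 genes were tested (Sergef, Tph1, Saal1, Hps5, Gtf2h1 and Ldha), with log2 fold changes from -0.04 to 1.04. None was called by edgeR, where the lowest adjusted p was 0.596, for Tph1. The nearest neighbours, Saal1 at 1.32 kb and Hps5 at 6.15 kb, had log2 fold changes of -0.04 ± 0.12 and 0.07 ± 0.13. These neighbours were named by position, and Tph1 also by its likeness to Hp below.

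Lcn2 (ENSMUSG00000026822.14, chr2:32384633-32388252) encodes lipocalin-2, a secreted protein that binds bacterial siderophores. It was measured at 22.3, 15.1, 52.5 and 39.9 CPM in ApoE-/- replicates 1 to 4 and at 4.13, 5.34, 4.65 and 5.51 CPM in WT replicates 1 to 4. The WT aortas were close together, while the ApoE-/- aortas spread 3.48-fold and all lay above them. The means were 32.5 ± 17.0 and 4.91 ± 0.635 CPM (SD, n = 4), a 6.61-fold fitted difference at rank 37 by p (edgeR adjusted p = 0.0381, DESeq2 adjusted p = 2.01e-09).

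Ptx3 (ENSMUSG00000027832.5, chr3:66219910-66225805) encodes the long pentraxin 3, a pattern recognition protein that binds C1q. The gene lies on the plus strand within the span of Veph1, which is on the minus strand, and the counts are strand-specific. Ptx3 was counted 32, 21, 56 and 38 times in ApoE-/- and 13, 10, 4 and 4 times in WT aortas, or 1.30, 0.918, 2.44 and 1.65 CPM against 0.597, 0.468, 0.222 and 0.191 CPM. The genotypes did not overlap, at means of 1.58 ± 0.648 and 0.369 ± 0.196 CPM (SD, n = 4). Ptx3 passed the filter on low counts through the ApoE-/- libraries. Its log2 fold change of 2.06 ± 0.46 did not pass in edgeR (adjusted p = 0.0934) and passed in DESeq2 (adjusted p = 0.00657). The DESeq2 call was lost without ApoE-/- replicate 3, WT replicate 3 or WT replicate 4 (adjusted p = 0.0679, 0.0503 and 0.0559).

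The edgeR calls of Saa3 and Lcn2 depended on single libraries, and those of DESeq2 did not. In edgeR both calls held without ApoE-/- replicate 1 or 2. Both were lost without ApoE-/- replicate 3 (adjusted p = 0.0585 for Saa3 and 0.0852 for Lcn2) or replicate 4 (0.0717 and 0.0814). They were also lost without WT replicate 1 (0.129 for both), 2 (0.146 and 0.147), 3 (0.145 and 0.170) or 4 (0.144 and 0.160). The genes that edgeR called in all numbered 572, 17, 0 and 8 without ApoE-/- replicates 1 to 4. They numbered 2, 0, 1 and 0 without WT replicates 1 to 4, against 70 with all libraries. The loss of calls was thus not particular to Saa3 and Lcn2. The log2 fold changes in these 8 edgeR fits stayed between 5.90 and 6.98 for Saa3 and between 2.39 and 2.96 for Lcn2, and in DESeq2 both genes passed in each of the 8 fits, with a highest adjusted p of 1.29e-06. With all 8 libraries, limma-voom did not call Saa3 (log2 fold change 6.05, adjusted p = 0.0747) or Lcn2 (2.56, 0.0754) and called 29 genes in all. With the replicate number as a block in edgeR the values were 6.24 (0.0714) and 2.57 (0.138), and 2 genes in all were called, against 70 without the block.

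Hp and Hpx encode the plasma scavengers of haemoglobin and haem. Hp (haptoglobin, ENSMUSG00000031722.10, chr8:109575128-109579172) was by far the most abundant member, at 585, 348, 237 and 1123 CPM in ApoE-/- replicates 1 to 4 and 326, 183, 185 and 289 CPM in WT replicates 1 to 4. ApoE-/- replicate 3 lay below WT replicates 1 and 4, so the genotypes overlapped. The means were 573 ± 394 and 246 ± 72.9 CPM (SD, n = 4) and the log2 fold change was 1.22 ± 0.48 (edgeR adjusted p = 0.364). The ApoE-/- aortas differed 4.73-fold among themselves, more than the 2.33-fold difference fitted between genotypes. In DESeq2, Hp passed only without ApoE-/- replicate 3 (adjusted p = 0.0165, against 0.122 with all libraries).

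Hpx (haemopexin, ENSMUSG00000030895.9, chr7:105591613-105600137, 85.9 Mb from Apoe) was counted 19, 12, 13 and 7 times in ApoE-/- and 7, 9, 9 and 10 times in WT aortas. ApoE-/- replicate 4, the highest for Hp, was the lowest of all 8 for Hpx in CPM. The log2 fold change was 0.34 ± 0.33 (edgeR adjusted p = 0.806), and the summed counts of 51 and 35 give a depth-scaled ratio of 1.28 (95% counting interval 0.816 to 2.03).

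Orm1 (ENSMUSG00000039196.2, chr4:63344560-63348163) encodes alpha-1-acid glycoprotein 1, a plasma carrier of basic and lipophilic molecules. It was measured at 18.0, 7.74, 5.79 and 24.3 CPM in ApoE-/- and at 5.32, 4.35, 4.88 and 12.7 CPM in WT replicates 1 to 4. WT replicate 4 stood apart from the other WT aortas and above ApoE-/- replicates 2 and 3. The means were 14.0 ± 8.75 and 6.81 ± 3.94 CPM (SD, n = 4), with a log2 fold change of 1.04 ± 0.54 (edgeR adjusted p = 0.554). Of the 50-base windows of the Orm1 transcript, 20.4% also occur in Orm2 or Orm3, so part of its pairs could not be counted.

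Per kilobase of the principal transcript, the order of the mean levels differed between genotypes. In WT aortas Hp led with 183 ± 54.2 CPM per kb (SD, n = 4), above Orm1 (8.79 ± 5.08) and Lcn2 (5.36 ± 0.694), which overlapped each other. Hpx (0.287 ± 0.0531), Saa3 (0.284 ± 0.213) and Ptx3 (0.195 ± 0.103) followed as a group of overlapping values. In ApoE-/- aortas Hp was again first, at 426 ± 293 CPM per kb, followed by Lcn2 (35.5 ± 18.5), Saa3 (23.6 ± 16.2) and Orm1 (18.0 ± 11.3), whose ranges overlapped. By mean alone, Saa3 was at place 5 in WT and 3 in ApoE-/- aortas, and Orm1 at 2 and 4. These are places among overlapping values, and the mean of Orm1 itself was higher in ApoE-/-. Ptx3 (0.831 ± 0.341), Saa2 (0.430 ± 0.432), Saa1 (0.392 ± 0.458) and Hpx (0.361 ± 0.128) overlapped in turn, and Saa4 was last in both genotypes.

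Profiles over the mice were compared next. As a measure of likeness, the root mean square (RMS) difference of log2 CPM over the 8 libraries was taken after centring each gene on its own mean, so that a small value means parallel profiles and genes with different fold changes between genotypes are far apart. Among the 15 pairs of tested members, Hp and Orm1 were closest (0.39), followed by Lcn2 and Ptx3 (0.59), while Saa3, which had the largest fold change, was at least 1.70 from every other member. Over the 4 ApoE-/- libraries alone, a comparison added after the values were seen and centred on each gene's mean there, Hp and Orm1 (0.20) and Lcn2 and Ptx3 (0.25) were again the closest pairs, and Saa3 was closer to Orm1 (0.46) and Hp (0.63) than to Ptx3 (1.03) or Lcn2 (1.09). Over all 8 libraries, the 3 tested non-members nearest to Saa3 were Mmp13 (RMS difference 1.03), an interstitial collagenase, Il6 (1.25) and Cd300lf (1.33), an inhibitory receptor of myeloid cells. Nearest to Lcn2 were F5 (0.27), coagulation factor V, Tnfrsf9 (0.30), a costimulatory receptor of T cells, and Zc3h12d (0.32). Nearest to Ptx3 were Spn (0.27), the leukocyte sialophorin, Runx3 (0.28), a transcription factor of T and natural killer cells, and Blk (0.30), a kinase of B cells. Nearest to Hp were Tph1 (0.25), Rgs14 (0.31) and Cd163l1 (0.31), and nearest to Orm1 were Fcor (0.34), H2-Q10 (0.34) and Acp5 (0.34). Nearest to Hpx, which varied least, were Pfkp (0.12), Sag (0.12) and Klf7 (0.13).

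Hp and Orm1 were set beside the adipocyte markers, since fat is a known site of their transcription. Summed over the 10 adipocyte markers, CPM was 9823, 5464, 3705 and 15233 in ApoE-/- and 13219, 8571, 8782 and 16282 in WT replicates 1 to 4. None of the 10 markers was called by edgeR or DESeq2, 0 had an unadjusted edgeR p under 0.05 (11.4% of all tested genes did), and the sums overlapped (two-sided exact permutation test, p = 0.343). Within each genotype the mice with higher sums had higher Hp, with the exception of WT replicate 4, which had the highest sum and less Hp than WT replicate 1.

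Relative to the adipocyte sum, both genes separated by genotype. This ratio was chosen after the values had been seen. Per 1000 CPM of adipocyte markers, Hp stood at 59.6, 63.7, 64.1 and 73.7 CPM in ApoE-/- replicates 1 to 4 and at 24.7, 21.3, 21.1 and 17.8 CPM in WT replicates 1 to 4. The coefficient of variation of Hp among ApoE-/- aortas was 68.7% in CPM and 9.19% per adipocyte CPM. The mean ratio was 3.08-fold higher in ApoE-/- (65.3 ± 6.0 against 21.2 ± 2.82, SD, n = 4; exact permutation test, two-sided, p = 0.0286, the lowest possible). Orm1 stood at 1.83, 1.42, 1.56 and 1.60 CPM in ApoE-/- and 0.403, 0.508, 0.555 and 0.779 CPM in WT aortas on this scale, 2.86-fold higher (same test and p).

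The same scale raises most genes in ApoE-/- aortas, where the adipocyte sums were lower on average (8556 ± 5141 against 11714 ± 3724 CPM, SD, n = 4) and uneven. The ratio is taken in each mouse before averaging, so a mouse with a low sum, such as ApoE-/- replicate 3 at 3705 CPM, weighs heavily. Over all 15077 tested genes the median ratio between genotypes was 1.73, with 5th and 95th percentiles of 1.16 and 3.07. Hp and Orm1 were among the 4.89% of tested genes that were higher without overlap per adipocyte CPM. The separation held for 9 of the 10 adipocyte markers taken singly, for both genes, with Lep as the exception. The part that fat around the vessel has in the CPM of Hp and Orm1 was not tested further.

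**Figure D2:**
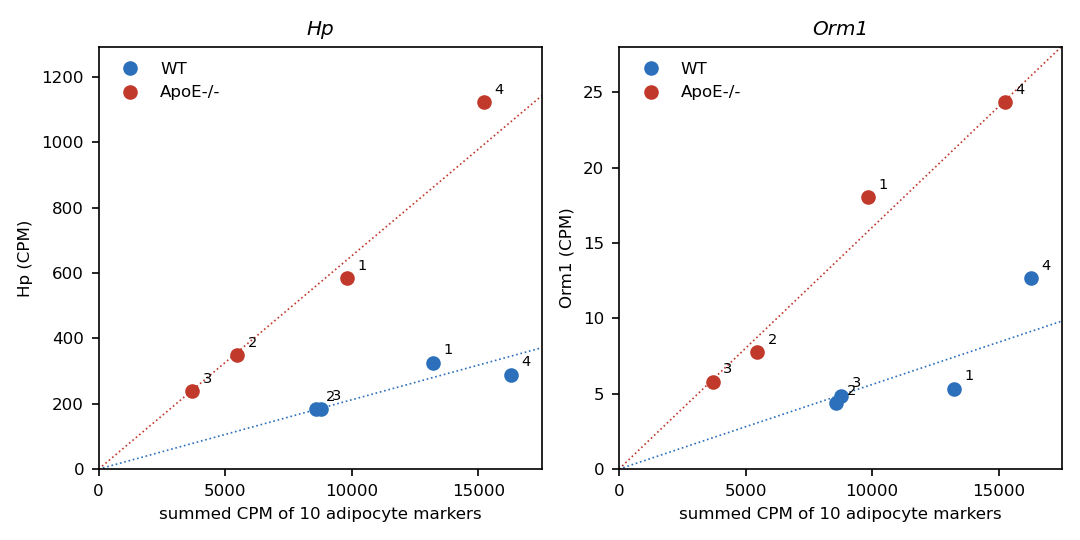
Hp (left) and Orm1 (right) in CPM against the summed CPM of 10 adipocyte markers in each aorta, WT in blue and ApoE-/- in red, with replicate numbers. Dotted lines through the origin have as slope the mean ratio of each genotype, for Hp 65.3 CPM per 1000 CPM of markers in ApoE-/- and 21.2 in WT, and each aorta lies nearer to the line of its own genotype.

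Leukocyte markers differed between genotypes as well. The 10 macrophage markers summed to 518, 1004, 1185 and 2174 CPM in ApoE-/- replicates 1 to 4 and to 419 to 501 CPM in WT aortas, without overlap. Of the 10, 9 were higher in every ApoE-/- aorta, replicate 1 included, than in any WT aorta. Mertk was the exception, at 64.8 CPM in ApoE-/- replicate 1 and 111 to 167 CPM in WT aortas, and without it (a sum chosen after the values were seen) the other 9 summed to 453, 794, 1011 and 2010 CPM against 257 to 377 CPM. Of the 10, edgeR called 2 higher, Fcgr1 and Trem2, with 9 at an unadjusted p under 0.05, and DESeq2 called 7 higher. Over all tested genes, 5.41% were higher without overlap and 11.4% had an unadjusted edgeR p under 0.05. The share called higher was 0.371% in edgeR and 3.23% in DESeq2. The edgeR call of Trem2 held only without ApoE-/- replicate 1 among the 8 fits without 1 library (adjusted p = 0.00432, and 0.0579 to 0.186 in the others), and was lost in limma-voom (0.143) and with the replicate block (0.167), while DESeq2 called it in each of the 8. The order of this sum over the ApoE-/- mice was not that of Saa3: replicate 1 had the lowest ApoE-/- macrophage sum, with or without Mertk, and the highest Saa3. The ApoE-/- pair with more Saa3, replicates 1 and 4, also had the higher adipocyte sums (9823 and 15233 against 5464 and 3705 CPM in replicates 2 and 3). It had the higher neutrophil sums (12.1 and 19.1 against 8.40 and 9.23 CPM) and hepatocyte sums (840 and 2026 against 671 and 436 CPM). Its smooth muscle sums were lower (5123 and 12795 against 21084 and 20196 CPM). The macrophage, fibroblast, endothelial, mesothelial and cardiac muscle sums did not separate the pairs. The pairs were formed from the Saa3 values and set beside the lists after both were seen. With 4 mice, such matches are a description only. Per adipocyte CPM, Saa3 varied less among ApoE-/- aortas, with a coefficient of variation of 43.5% against 68.6% in CPM, and the genotypes did not overlap on either scale. The spread of Orm1 also fell on that scale, from 62.6% to 10.8%, while that of Lcn2 rose from 52.2% to 107%, that of Ptx3 from 41.1% to 98.3% and that of Hpx from 35.4% to 63.0%. Lcn2 and Ptx3 were highest in replicate 3, which had the next to highest macrophage sum, and both were lowest in replicate 2. The sum of the 10 fibroblast markers was also highest in replicate 3, at 12072 CPM, followed by 11209 CPM in replicate 4, 7932 CPM in replicate 2 and 4553 CPM in replicate 1.

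**Figure D3:**
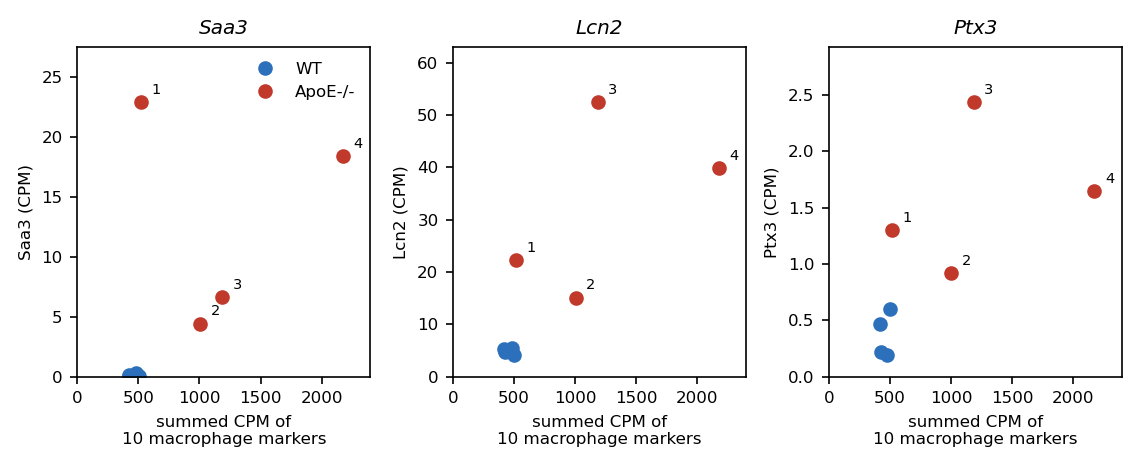
CPM of Saa3, Lcn2 and Ptx3 (y axes) against the summed CPM of 10 macrophage markers (x axis) in each aorta, WT in blue and ApoE-/- in red with replicate numbers. ApoE-/- replicate 1 has a macrophage sum of 518 CPM, above the WT range of 419 to 501 CPM, and the highest Saa3, at 22.9 CPM. Of the 10 markers, 9 are higher in this aorta than in any WT aorta, and Mertk, at 64.8 CPM, is lower.

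The 10 neutrophil markers summed to 8.40 to 19.1 CPM in ApoE-/- and to 2.78 to 4.27 CPM in WT aortas, and 1 of the 2 that could be tested, Csf3r, was called higher by edgeR (log2 fold change 1.97 ± 0.26, adjusted p = 0.0379). This call held only without ApoE-/- replicate 1 among the 8 fits without 1 library (adjusted p = 0.0112, and 0.0508 to 0.159 in the others) and was lost with the replicate block (0.121). DESeq2 called both tested markers, Csf3r in each of the 8 fits without 1 library and S100a9 (edgeR log2 fold change 2.25 ± 0.45, DESeq2 adjusted p = 0.00174) with all libraries. S100a9 passed the filter on low counts through the ApoE-/- libraries (0.383 to 0.459 CPM in WT aortas). Csf3r, which is also transcribed in other myeloid cells, made up 46.0% to 63.5% of the neutrophil sum in ApoE-/- and 40.4% to 58.0% in WT aortas. Further markers are named here after their values were seen. The granule genes Ltf (0.236 against 0.322 CPM) and Camp (0.0749 against 0.0879 CPM) had lower means in ApoE-/- than in WT aortas. Mmp8 (0.770 against 0.0745 CPM, without overlap) and Ngp (0.235 against 0.0980 CPM), also granule genes, had higher means. So did S100a8 (1.29 against 0.279 CPM, without overlap), Cxcr2 (0.520 against 0.145 CPM) and Retnlg (0.405 against 0.174 CPM). None of these genes could be tested. Ly6g, which defines mouse neutrophils, had 0 or 1 count in every library. The part of neutrophils, macrophages, fibroblasts and adipocytes in Saa3, Lcn2 and Ptx3 was not tested. Alb, which defines hepatocytes, had 0 to 18 counts per library, with a mean of 0.170 CPM in ApoE-/- and 0.457 CPM in WT aortas, and none of the 4 hepatocyte markers tested was called by edgeR or DESeq2 or had an unadjusted edgeR p under 0.05. Cyp2e1, which made up nearly all of the hepatocyte sum and is also transcribed in fat, had a log2 fold change of 0.17 ± 0.49. Of the 9 cardiac muscle markers, 8 lay lower in every ApoE-/- aorta than in any WT aorta. EdgeR called 0 of them (8 at an unadjusted p under 0.05), and DESeq2 called 6 lower. Over all 15077 tested genes, 498 lay lower without overlap, 11.4% had an unadjusted edgeR p under 0.05 and DESeq2 called 1.75% lower. Ryr2, the exception, had a log2 fold change of -0.02 ± 0.31 and made up most of the ApoE-/- sum, and the list summed to 160 to 345 against 420 to 732 CPM. The sums of the other lists overlapped between genotypes, while some of their genes differed. Of 10 endothelial markers (sums of 1815 to 2666 CPM in ApoE-/- against 2589 to 3106 in WT), edgeR called 0, with 6 at an unadjusted p under 0.05, and DESeq2 called 5 lower, where 1.75% of all tested genes were called lower. Of 10 fibroblast markers (4553 to 12072 against 4622 to 5264 CPM), edgeR called 0, with 3 at an unadjusted p under 0.05, and DESeq2 called 3 higher. Over all tested genes, DESeq2 called 3.23% higher. Of the 5 mesothelial markers tested (list sums of 3.05 to 12.9 against 4.93 to 67.5 CPM), edgeR and DESeq2 called 0, with 1 at an unadjusted edgeR p under 0.05. The part of these cells in the members was not tested.

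The wider acute-phase programme was followed in lists of genes by role. Of 30 other positive acute-phase genes, 23 were tested and 1 was called higher by edgeR, against 12 at an unadjusted p under 0.05 (where 11.4% of all tested genes passed) and 7 called by DESeq2. The median log2 fold change was 0.69. For this list and those below, the share of all tested genes called higher was 0.371% in edgeR and 3.23% in DESeq2. The gene called was Serpina3n, a secreted serine protease inhibitor, at 259 ± 99.9 CPM in ApoE-/- against 41.5 ± 10.3 CPM in WT (log2 fold change 2.64 ± 0.30, edgeR adjusted p = 0.0355). Among the genes that passed in DESeq2 only, and chosen here after their values were seen, were Itih4 (edgeR log2 fold change 2.24 ± 0.49, DESeq2 adjusted p = 1.41e-04) and the complement components C4b (1.29 ± 0.27, 2.44e-04) and C3 (0.96 ± 0.31, 0.0342).

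Negative acute-phase genes, whose plasma proteins fall in inflammation, had 4 of 9 members tested, a median log2 fold change of 0.08 and 0 calls in edgeR or DESeq2 (0 at an unadjusted edgeR p under 0.05). The most abundant were Trf, encoding transferrin (-0.02 ± 0.46), and Igf1 (0.17 ± 0.14).

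**Figure D4:**
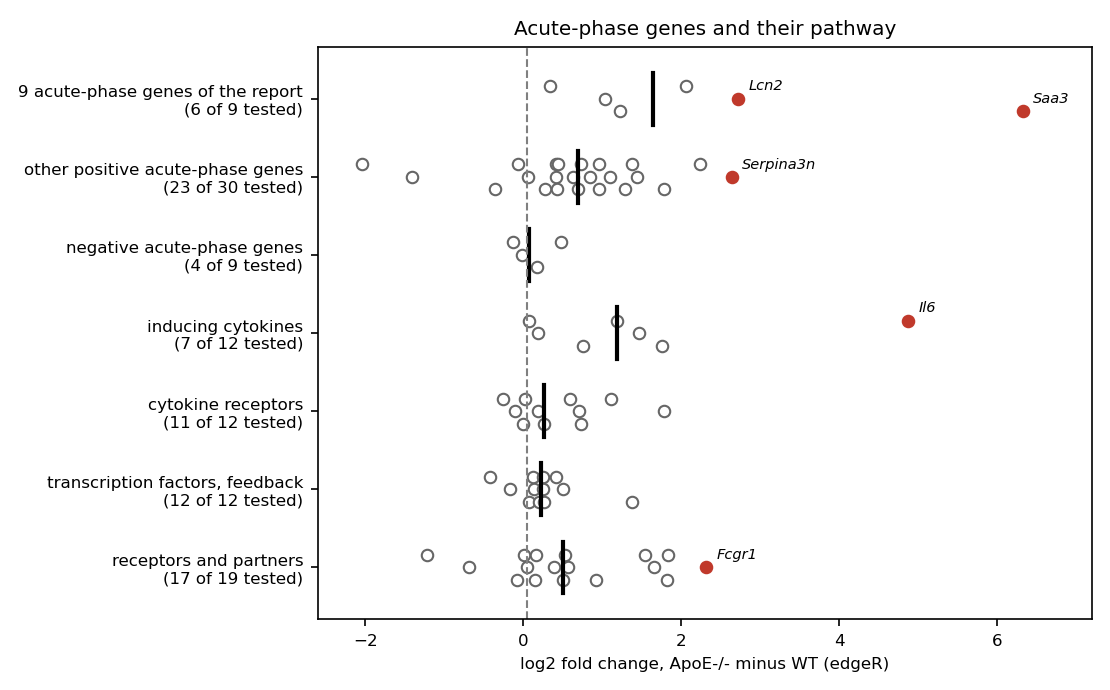
Log2 fold change (x axis, ApoE-/- minus WT, edgeR) of every tested gene in each list (rows), with filled red points for genes past an adjusted p of 0.05, a black bar for the median of each list and a dashed line for the median of all tested genes (0.05). The genes called are Saa3, Lcn2, Serpina3n, Il6 and Fcgr1, and the medians run from 0.08 for the negative acute-phase genes to 1.64 for the 6 members tested.

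Of 12 inducing cytokines, 7 were tested. Il6, the main inducer of the response in hepatocytes, was called higher by edgeR, at 4.71 ± 1.67 CPM in ApoE-/- against 0.153 ± 0.146 CPM in WT (log2 fold change 4.87 ± 0.71, adjusted p = 0.0396). Il6, Tnf and Il1a passed the filter on low counts through the ApoE-/- libraries. In WT aortas they had 0 to 0.281, 0.144 to 0.468 and 0.328 to 0.910 CPM. The median of 1.19 and the counts over the tested genes are thus a description only. Of the 7, 5 had an unadjusted p under 0.05 and 2 were called by DESeq2, the other being Il1b (edgeR log2 fold change 1.75 ± 0.36, DESeq2 adjusted p = 0.00114). Il22 and Il17a were at 0 counts in all 8 libraries.

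None of the 11 cytokine receptors tested was called by edgeR, against 5 at an unadjusted p under 0.05 and 3 called higher by DESeq2, and their median was 0.26. The shared signal transducer Il6st had 825 ± 85.2 CPM in ApoE-/- and 829 ± 127 CPM in WT (log2 fold change -0.01 ± 0.17), and Lifr, the leukaemia inhibitory factor receptor, had -0.25 ± 0.13. Of the 12 transcription factors and feedback genes, 0 were called by edgeR, 3 had an unadjusted p under 0.05 and 2 were called higher by DESeq2, with a median of 0.22. Stat3 was 279 ± 48.4 CPM in ApoE-/- and 210 ± 9.42 CPM in WT (0.41 ± 0.14, edgeR adjusted p = 0.282), and Cebpa, which is also high in fat, had -0.17 ± 0.41. Socs3, the feedback inhibitor that STAT3 induces, passed in DESeq2 only (edgeR log2 fold change 1.38 ± 0.26, DESeq2 adjusted p = 1.41e-04) and is named after its value was seen.

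Of 19 receptors and partners of the member proteins, 17 were tested, with a median of 0.51 and 1 called higher by edgeR, against 6 at an unadjusted p under 0.05 and 6 in DESeq2. The gene called was Fcgr1, an immunoglobulin G receptor to which pentraxins bind and also a macrophage marker, at 6.87 ± 2.27 against 1.37 ± 0.247 CPM (2.32 ± 0.28, edgeR adjusted p = 0.0355). The 6 lists together thus held 3 edgeR calls of 74 genes tested, and 20 in DESeq2.

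The 3 edgeR calls, like those of Saa3 and Lcn2, were lost on leaving out single libraries. All 3 were lost without ApoE-/- replicate 3 (adjusted p = 0.0734 for Serpina3n, 0.107 for Il6 and 0.0755 for Fcgr1). They were also lost without WT replicate 1 (0.123, 0.129 and 0.123), 2 (0.146, 0.147 and 0.146), 3 (0.143, 0.170 and 0.143) or 4 (0.144 for each). In each fit that lost all 3, edgeR called 0 to 2 genes in all. Without ApoE-/- replicate 2, Il6 (0.0579) and Fcgr1 (0.0508) were lost, and without replicate 4 only Il6 (0.0767). With the replicate number as a block the adjusted p was 0.0977, 0.140 and 0.132. In these 8 edgeR fits without 1 library the log2 fold changes stayed between 2.35 and 2.78 for Serpina3n, 4.47 and 5.31 for Il6 and 2.07 and 2.45 for Fcgr1, and in DESeq2 all 3 genes passed in each of the 8, with a highest adjusted p of 5.03e-07.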

How the data were processed

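Stranded libraries of ribodepleted total RNA were sequenced, 1 for the aorta of each of 4 ApoE-/- and 4 WT mice. The authors deposited the raw counts of pairs on each gene, without normalization, with totals for pairs on no gene (50.1% to 58.0%), on ambiguous genes or aligned to several places (11.8% to 14.3%), which were left out of library sizes and tests. The submitters' processing notes name TopHat2, HTSeq, GRCm38 and mm10, and versions are not given in the sources used here. Groups and replicate numbers came from the sample labels. No libraries were near duplicates.

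Counts were analysed in R 4.3.3 with edgeR 4.0.16: filterByExpr kept 15077 genes, TMM factors were computed, and glmQLFit (robust = TRUE) with glmQLFTest compared genotypes, two-sided, with Benjamini-Hochberg adjustment. SE is the log2 fold change divided by the square root of F. Values per mouse were compared by exact permutation over 70 assignments. Counting intervals are exact 95% intervals for a ratio of 2 summed counts. Pairs are not unique molecules, so these intervals cover counting error only. Alternatives used DESeq2 1.42.0, limma 3.58.1 (voom), other scalings and filters, the replicate block and leaving out each mouse, and scripts were tested on simulated data. Coordinates, transcripts and lengths came from GENCODE M21, matched for 21817 of 21859 identifiers, and promoters from RefSeq. Hp and Orm1 are named only, without promoters, and protein sequences were not used here.

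The members and gene lists were chosen with earlier results of these data known. Named genes were the 9 members, list genes past the threshold or, in a list with none, the 2 most abundant, Apoe, and for each tested member the 3 genes most like it. Exceptions are named in the text.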

Additional observations from a re-analysis of the deposited data

Results flagged for a closer look

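In groups of 4 aortas, a value was singled out where its gap to the nearest other aorta took a larger share of the range of the group than Dixon's 95% limit for 4 samples. Of 36 groups examined (the members, the lists for 6 cell types, the adipocyte ratios of Hp and Orm1 and the pairs on genes, each in both genotypes), 5 passed this limit, where chance gives about 1 in 20, or 1.8. For Saa3, WT replicate 4 stood apart at 0.335 CPM, with 0.922 of the range, which rests on 7 counts against 2 in each of the other WT aortas. For Orm1, the same aorta stood apart at 12.7 CPM, with 0.884. For Saa2, ApoE-/- replicate 1 stood apart at 0.649 CPM, with 0.846. For Saa4, WT replicate 2 was the only WT aorta with a count, which gives a share of 1 by construction, whatever the count. For the cardiac muscle markers, ApoE-/- replicate 4 was lowest, at a sum of 160 CPM, with 0.946.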

How the results depend on the processing

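None of the 6 tested members changed direction under any alternative. In edgeR, 2 members and 3 pathway list genes were called, with either other scaling, either other filter or without robust estimation also 2 and 3. DESeq2 called 3 members and 20 list genes. limma-voom called 0 members (4 at an unadjusted p under 0.05), 3 list genes and 29 genes in all. With the replicate block, edgeR called 0 members (5 at an unadjusted p under 0.05) and 0 list genes (34) of 2 genes in all, and the adjusted p was 0.0714 for Saa3 and 0.138 for Lcn2. Replicate numbers are shared by different mice, and deviations of same-numbered mice correlated at 0.0593, -0.448, 0.316 and 0.162, so the numbers do not pair them. Leaving out each mouse, edgeR called 0 to 2 members (3 to 5 at an unadjusted p under 0.05) and 0 to 18 list genes, and DESeq2, added after seeing the data, 2 to 3 members and 15 to 30 list genes (15, 16, 17 or 18 except without ApoE-/- replicate 1). Without ApoE-/- replicate 1, edgeR called 18 list genes and 572 genes in all, against 70 with all libraries. In the other fits without 1 library, edgeR called 0 to 17 genes in all. Saa1, Saa2, Saa4 and Hpx had at most 19 counts in a library, so the size of a difference in them is poorly bounded at this depth. Without a filter on low counts, the edgeR adjusted p was 0.606 for Saa1, 0.472 for Saa2 and 0.132 for Saa4. Relative to Lep alone, the exact permutation p of Hp and Orm1 was 0.0571.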
